A study of Mus musculus with 10 samples.

Results

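Rnh1 and Gm20594 were 2 transcripts that were abundant in wild-type mouse embryonic stem cells and far lower in 2 of 4 groups of cells mutant for Mbd3, a subunit of the NuRD chromatin complex. They were picked by symbol from the deposited tables because their fall was among the deepest in both of those mutants, and they are 2 of the 8694 genes listed in at least 1 of the 4 tables. Their fall is therefore described here without a test. Position and sequence played no part in the choice.

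The 10 RNA-seq libraries came from E14 embryonic stem cells grown on gelatin-coated plates, with 2 libraries in each of 5 groups. The controls were wild type (WT). CRISPR/Cas9 mutations lay in exon 2 of Mbd3 in Mbd3ab KO and Mbd3cΔN-ab KO cells, in intron 2 in Mbd3c KO cells and in exon 5 in Mbd3abc KO cells. The letters name the Mbd3 protein isoforms that were removed, and cΔN names a form of isoform c without its N-terminus. Total RNA was depleted of ribosomal RNA (rRNA) and made into stranded libraries. The labels call the libraries of a group biological replicates and do not say whether they came from separate clones. The read columns of each mutant group carry 2 different names, such as ABF2 and ABF3, whose meaning the labels do not give, so any p-value measures only the spread between these libraries. All comparisons with WT use the same 2 WT libraries, and the names "first" and "second" only follow the order of the columns.

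Rnh1 encodes the ribonuclease inhibitor, a cytosolic protein built of leucine-rich repeats that binds secreted ribonucleases of the RNase A family, angiogenin among them, very tightly and blocks them. The same protein is a common reagent in RNA work, where it protects RNA from degradation. Gm20594 is a predicted gene that the deposited annotation also calls Mtrnr2l, after its likeness to mt-Rnr2, the 16S rRNA that mitochondria transcribe from their own genome.

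Gm20594 lay on chromosome 6 of mm10 at chr6:79818031-79818364, plus strand, as a listed transcript of 332 bases. Rnh1 lay at chr7:141160326-141168686, minus strand, with a listed transcript of 1643 bases. In the GENCODE annotation neither gene overlapped another. Gm20594 had no protein-coding gene closer than Lrrtm4, at 201 kb, whereas Rnh1 had Ptdss2 at 2.72 kb and Hras at 16.2 kb.

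The stretch of Gm20594 that holds most of its coding part is shown with the matching stretch of mt-Rnr2, because the likeness bears on which molecules its reads can come from. Both are the plus strand of GRCm38, at chr6:79818251-79818350 and chrM:2070-2170. Capitals mark bases that differ between them or have no partner.
Gm20594: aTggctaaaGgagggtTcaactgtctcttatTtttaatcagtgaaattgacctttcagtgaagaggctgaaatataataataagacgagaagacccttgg
mt-Rnr2: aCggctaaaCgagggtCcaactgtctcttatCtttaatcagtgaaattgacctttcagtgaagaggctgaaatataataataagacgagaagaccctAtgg

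Over its whole GENCODE transcript of 449 bases, Gm20594 aligned to the 1582-base mt-Rnr2 across 95.5% of its length with 88.4% identity. The alignment held 388 identical columns, 41 mismatches and 10 gap bases, and its longest identical run was 65 bases. Of the 420 stretches of 30 bases in Gm20594, 44 (10.5%) also occurred in mt-Rnr2, and no other gene's transcript shared one. At 50 bases, 16 of 400 stretches (4%) were shared. A short read from those places cannot be assigned to either gene by its letters. No source used here gives the read length or the treatment of reads with several matches, and the part of shared reads in the Gm20594 values was not tested. No mitochondrial gene was listed in any table, so mt-Rnr2 itself could not be compared. Rnh1 shared 79 of 1629 stretches of 30 bases (4.85%) with 1 processed pseudogene and 0 of 1609 stretches of 50 bases with any other gene.

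**Figure D1:**
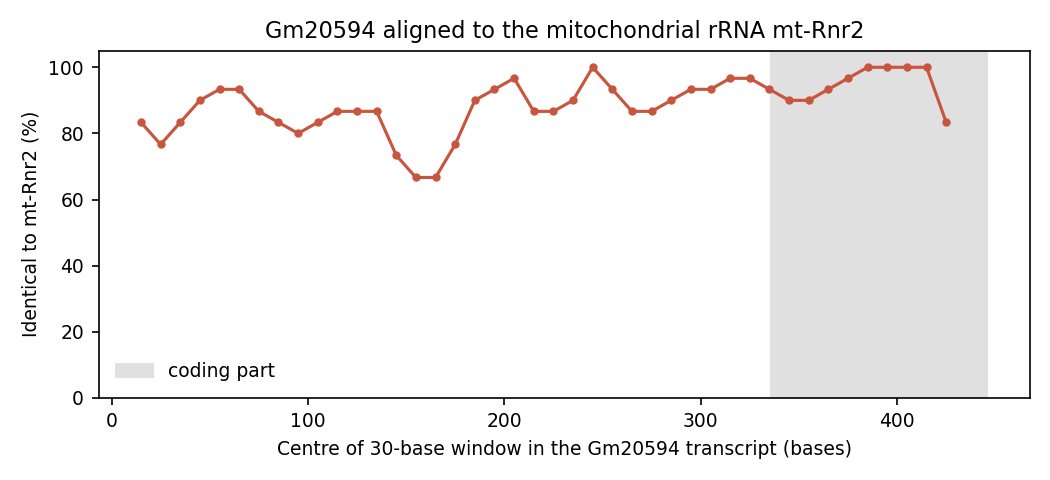
Percentage of bases in Gm20594 that were identical to the aligned base of mt-Rnr2 (y axis), in windows of 30 bases along the Gm20594 transcript (x axis, bases), with the coding part shaded. Identity was lowest, at 66.7%, in windows centred on bases 155 and 165, and was 100% in windows centred on bases 385 to 415.

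Rnh1 was among the most abundant of the listed transcripts in WT cells and fell to a moderate level in both strong mutants. Levels are normalized reads, that is, deposited reads scaled for library depth. In the table of Mbd3abc KO cells, Rnh1 stood at 44494 and 26857 normalized reads in the WT libraries and at 584 and 481 in the mutant libraries. The lowest WT library was 46.0 times the highest mutant library, so the groups lay far apart. The group means were 35676 ± 12471 in WT and 532 ± 72.8 in Mbd3abc KO cells (SD, n = 2 each), a level 67.0-fold lower. In the table of Mbd3cΔN-ab KO cells the WT libraries held 42229 and 25669 normalized reads of Rnh1 and the mutant libraries 653 and 472. Again no library of one group reached the other, and the mean was 60.4-fold lower in the mutant, at 563 ± 128 against 33949 ± 11710 (SD, n = 2 each).

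Gm20594 started lower and fell as far. In the table of Mbd3abc KO cells it stood at 1740 and 1174 normalized reads in WT and at 29.0 and 31.5 in the mutant. The means were 1457 ± 400.2 and 30.2 ± 1.76 (SD, n = 2 each), 48.2-fold lower in the mutant. In the table of Mbd3cΔN-ab KO cells the WT libraries held 1652 and 1122 normalized reads of Gm20594 and the mutant libraries 22.9 and 12.7. The mean of 17.8 ± 7.18 was 78.0-fold below the WT mean of 1387 ± 374 (SD, n = 2 each), and the lowest WT library was 49.1 times the highest mutant library.

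The authors' deposited table of Mbd3abc KO cells, made with DESeq2, gave log2 fold changes of -5.76 ± 0.30 for Rnh1 and -5.29 ± 0.31 for Gm20594 (± SE). In the authors' deposited table of Mbd3cΔN-ab KO cells these were -5.41 ± 0.30 and -5.60 ± 0.33, and all 4 lay nearer to 0 than the ratios of the group means. For Gm20594 in Mbd3cΔN-ab KO cells the deposited value corresponds to a 48.4-fold fall, against 78.0-fold from the group means. By the authors' deposited table, Rnh1 ranked 2 in depth of fall in both mutants, and Gm20594 ranked 4 in Mbd3abc KO cells and 1 in Mbd3cΔN-ab KO cells. A call there was common. The number of genes tested in each table is not stated and was inferred from the deposited p-values and adjusted p-values. Of the 15622 genes tested in Mbd3abc KO cells 52.1% were called at an adjusted p under 0.05, and 24.9% were called lower. In Mbd3cΔN-ab KO cells 41.5% of 14429 tested genes were called and 20.4% called lower. The rule used these contrasts, so nothing is read from both genes being called. In bulk RNA, fewer cells with a transcript and less of it in each cell cannot be told apart.

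**Figure D2:**
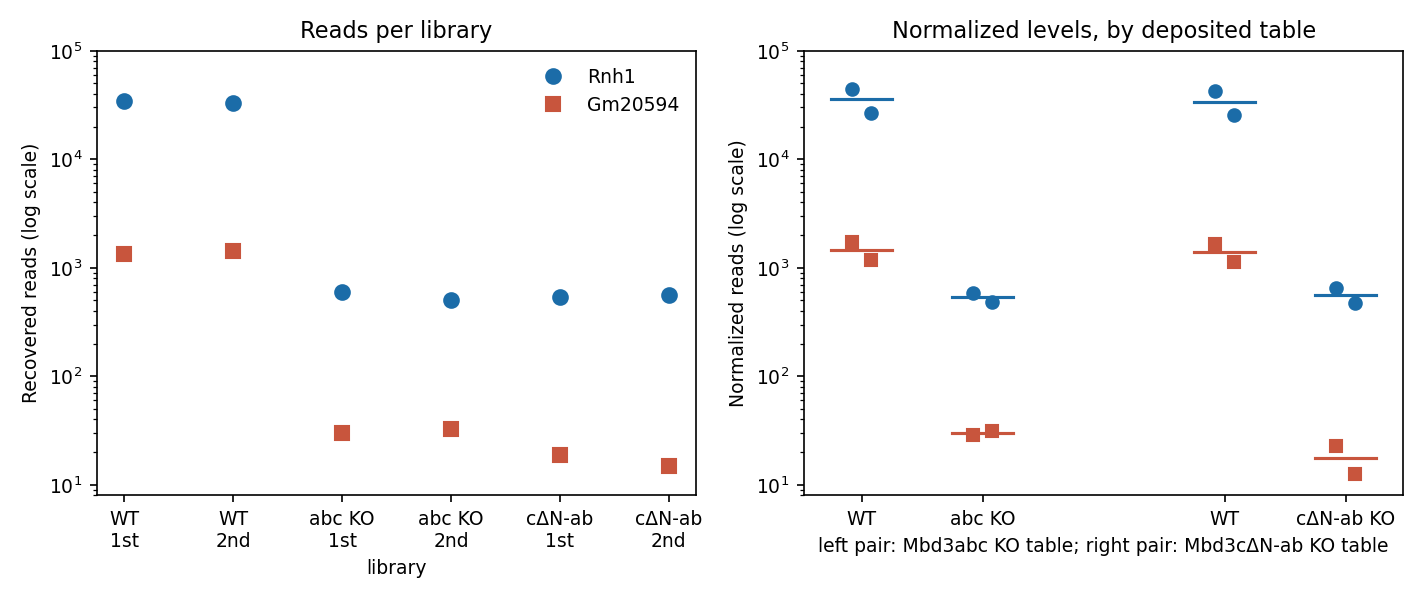
Left, whole reads recovered for Rnh1 (circles) and Gm20594 (squares) in each WT, Mbd3abc KO and Mbd3cΔN-ab KO library; right, normalized reads of the same genes in each deposited table, with lines at the group means, both on log axes. Rnh1 lies at 32930 reads or more in both WT libraries and at 504 to 604 in the 4 mutant libraries, and Gm20594 falls from at least 1352 reads to 33 or fewer.

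Per kilobase of transcript, a scale on which genes can be compared, the WT level of Rnh1 ranked 9 of the 8141 genes in the table of Mbd3abc KO cells, at 21714 normalized reads per kb. In the mutant it held 324 per kb, which was the 78.5th percentile of the same genes. Rnh1 thus remained a well-detected transcript. The listed genes are nearly all called ones, so such ranks do not cover every transcript of the cells. Gm20594 ranked 114 in WT at 4390 per kb and dropped from the 98.6th to the 44.7th percentile, at 91.1 per kb. In Mbd3cΔN-ab KO cells Gm20594 held 53.6 per kb, the 27.8th percentile of 6000 listed genes, and Rnh1 held 342 per kb, the 78.9th percentile.

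Neither gene was listed for the milder mutants. The table of Mbd3ab KO cells holds 443 genes, of which 442 were called (3.35% of 13201 tested), and that of Mbd3c KO cells holds 38 called genes (0.353% of 10758 tested). Levels of Rnh1 and Gm20594 in those 4 mutant libraries are therefore not analysed here. The absence does not measure an unchanged level. The 171 genes called lower in Mbd3ab KO cells (1.3% of those tested) had falls from 1.46-fold (Myo10) to 33.1-fold (Car14), with a median of 2.04-fold. The 4 called lower in Mbd3c KO cells (0.0372%) fell between 3.46-fold (Peg3) and 4.03-fold (Socs2).

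The WT libraries differed from each other for both genes. The normalized values in both strong tables were whole multiples of the value of 1 read, so the reads could be counted back. WT held 34565 and 32930 reads of Rnh1, Mbd3abc KO held 604 and 504, and Mbd3cΔN-ab KO held 543 and 557. For Gm20594 these were 1352 and 1440, 30 and 33, and 19 and 15. The second WT library was 1.59 times as deep as the first, yet both libraries held nearly the same number of reads of each gene. After scaling for depth, the first WT library was 1.66 times the second for Rnh1 and 1.48 times for Gm20594 in the table of Mbd3abc KO cells.

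For most genes the WT libraries differed little. Among the 4071 genes at or above the median level in that table, the first WT library was 1.02 times the second at the median, with 5th and 95th percentiles of 0.843 and 1.23. Only 18 of these genes (0.442%) had a ratio as high as that of Rnh1 and 45 (1.11%) one as high as that of Gm20594. In the table of Mbd3cΔN-ab KO cells, 11 of 3000 genes (0.367%) matched or passed Rnh1 and 30 (1%) Gm20594. The kits used for rRNA depletion came from NEB and Clontech, and no source used here ties a kit to a library. Whether library preparation had a part in the levels of either gene was not tested.

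**Figure D3:**
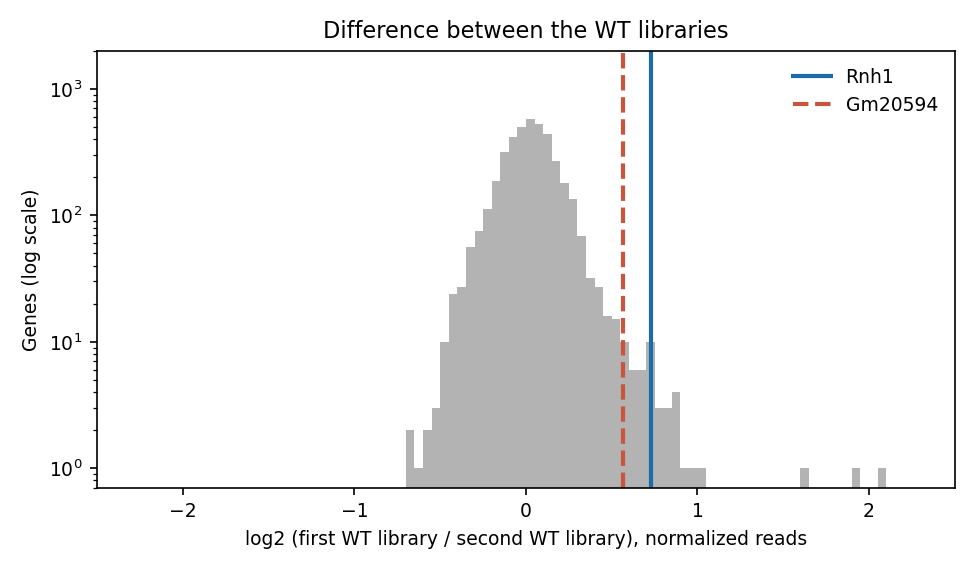
Number of genes (y axis, log scale) by the log2 ratio of the first to the second WT library in normalized reads (x axis), for the 4071 genes at or above the median level in the table of Mbd3abc KO cells. The lines for Rnh1, at 0.73, and Gm20594, at 0.57, stand in the right tail.

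The proportion of Rnh1 to Gm20594 reads varied between the groups. There were 25.6 and 22.9 reads of Rnh1 for each read of Gm20594 in the WT libraries, 20.1 and 15.3 in Mbd3abc KO cells and 28.6 and 37.1 in Mbd3cΔN-ab KO cells. Both Mbd3abc KO libraries lay below the WT libraries and both Mbd3cΔN-ab KO libraries above them. Both genes were chosen for deep falls in these libraries, which limits how far the proportion could move, so nothing is read from it.

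The strong mutants were also set against each other. The choice required low levels in both of them, so this contrast rests on values the choice used, and its p-values are given only as a description. On a scale shared by the 6 libraries, Rnh1 stood at 575 and 459 in Mbd3abc KO cells and at 697 and 483 in Mbd3cΔN-ab KO cells. These ranges overlapped. The difference, Mbd3abc KO over Mbd3cΔN-ab KO, was -0.19 ± 0.27 on the log2 scale (SE), with a 95% interval of -0.81 to 0.44 and an adjusted p of 0.640 (edgeR quasi-likelihood test, Benjamini-Hochberg over 5413 genes). It was negative with all libraries and turned to 0.10 without the first Mbd3cΔN-ab KO library.

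Gm20594 stood at 28.6 and 30.1 in Mbd3abc KO cells and at 24.4 and 13.0 in Mbd3cΔN-ab KO cells on that scale. Both Mbd3abc KO libraries were higher. The log2 difference of 0.71 ± 0.38 (SE) had a 95% interval of -0.17 to 1.58 and an adjusted p of 0.226 in the same edgeR test. Neither gene was called, whereas 361 of the 5413 genes (6.67%) were. The adjusted p stayed between 0.401 and 0.932 for Rnh1 and between 0.150 and 0.708 for Gm20594 across the alternatives run. These values do not show that the mutants were alike.

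By pattern across the 4 strong mutant libraries, the gene closest to Gm20594 was Rnh1. Likeness was measured as the root mean square difference in log2 ratio to WT, among genes called in both tables with a WT mean of at least 10% of the member's. Rnh1 differed from Gm20594 by 0.47 log2 units, and the next of the 3946 genes compared were Dppa3 at 1.35, Rhox5 at 2.12, Fgf17 at 2.29 and Dll1 at 2.38. Both members were chosen for deep falls, so their closeness is a description. Rnh1 had no such company among abundant genes. For Rnh1 the 10% rule required a WT mean of 3568. That left out Gm20594 and Dppa3, with WT means of 1457 and 213. Of 309 genes with enough WT signal, the nearest was the histone gene Hist1h2bn, at 2.63 log2 units, followed by the rRNA precursor Rn45s at 3.43, the glycolytic gene Tpi1 at 3.89, the lactate transporter gene Slc16a3 at 3.93 and the linker histone gene Hist1h1c at 3.96.

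The 8 genes with the lowest mean of the log2 fold changes in the authors' deposited tables began with Rnh1 at -5.59 and Gm20594 at -5.44. Dppa3, a maternal and naive-pluripotency factor, followed at -4.58 by the authors' deposited tables, then Rhox5 at -3.85, Ccnd2 at -3.78, Lef1 at -3.62, Hist1h2bn at -3.30 and Ccno at -3.17. Dppa3, Rhox5, Ccnd2 and Lef1 were also called lower in Mbd3ab KO cells, beside 1.3% of all genes tested there. Rnh1, Gm20594, Hist1h2bn and Ccno were not listed for Mbd3ab KO cells. The 8 genes were picked for deep falls in the strong mutants, so nothing is read from this split. Dppa3 also differed from the members between the WT libraries, where it stood at 192 and 233 normalized reads, lower in the first. Of the other genes near Gm20594 in pattern, Rhox5 was lower in the first too, with a ratio of 0.895. Fgf17 and Dll1 were higher in it, as the members were, with ratios of 1.22 and 2.02.

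Rn45s, the precursor of the cytosolic rRNAs, fell too. It stood at 21246 and 17680 normalized reads in WT and at 2385 and 2328 in Mbd3abc KO cells, 8.26-fold lower. In the table of Mbd3cΔN-ab KO cells Rn45s stood at 20165 and 16897 in WT and at 6111 and 2836 in the mutant, 4.14-fold lower. Rn45s was the only called gene among 76 mitochondrial and ribosomal RNA symbols. Of all tested genes, 52.1% were called in Mbd3abc KO and 41.5% in Mbd3cΔN-ab KO cells. How many of the 76 were tested is not known, so nothing is read from the others not being called. The WT ratio of Rn45s, first over second library, was 1.20. Hist1h2bn fell from 5721 and 4491 normalized reads to 446 and 437 in Mbd3abc KO cells, with a WT ratio of 1.27. A change in what rRNA depletion removed and a change in the cells cannot be told apart for Rn45s in these libraries.

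Transcript length and base composition placed the members differently. Gm20594 is short, and of the 131 called genes with transcripts of 500 bases or less 77 (58.8%) were lower in Mbd3abc KO cells, against 47.7% of longer ones. In Mbd3cΔN-ab KO cells 61 of 93 (65.6%) short transcripts were lower, against 48.8%. The direction of change went with GC content across all called genes. Rnh1, at 55.5% GC, lay in class 4 of 5 ordered by rising GC, in which 79.6% of called genes were lower in Mbd3abc KO and 85.8% in Mbd3cΔN-ab KO cells. Gm20594, at 35.0% GC, lay in the lowest class, in which only 26 of 1610 called genes (1.61%) were lower in Mbd3abc KO cells. For Mbd3cΔN-ab KO cells that class held 11 lower genes out of 1187 (0.927%), and Gm20594 was counted among the lower ones in both. The part of GC content in the values was not tested.

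**Figure D4:**
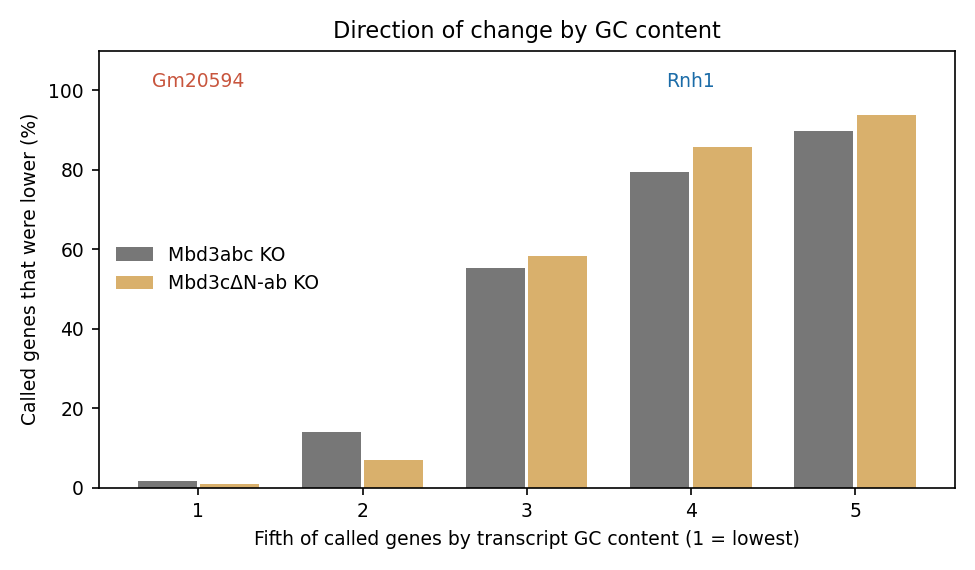
Percentage of called genes that were lower than WT (y axis) in each of 5 classes of transcript GC content, from lowest to highest (x axis), for Mbd3abc KO and Mbd3cΔN-ab KO cells, with the class of each member named above the bars. The share rises from 1.61% to 89.7% in Mbd3abc KO cells and from 0.927% to 93.8% in Mbd3cΔN-ab KO cells, and Gm20594 is in the lowest class.

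Genes around Rnh1 mostly fell as well, by much less. Within 500 kb of Rnh1 the reference holds 53 other protein-coding genes, of which 25 were called in Mbd3abc KO cells, 23 lower and 2 higher. Of these called neighbours 92.0% were lower, against 47.9% of all called genes, and their median log2 fold change in the authors' deposited table was -1.17 against 0.46. In Mbd3cΔN-ab KO cells all 20 called neighbours were lower, against 49.1% of all called genes, with a median of -0.87 against 0.37 in the authors' deposited table. Of all tested genes, 52.1% were called in Mbd3abc KO and 41.5% in Mbd3cΔN-ab KO cells, and 24.9% and 20.4% were called lower. The tables do not say which of the uncalled neighbours were tested, so a share of the 53 would not be like these. Within 250 kb, 13 and 12 neighbours were called lower, and within 1 Mb, which holds 83 protein-coding genes, the counts were again 23 and 20. The neighbours were richer in GC than other called genes, with a median of 54.6% against 50.7% in Mbd3abc KO cells, and 17 of the 25 lay in the 2 highest GC classes. Its part in their direction was not tested.

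Ptdss2, which makes phosphatidylserine, is the nearest gene and was 1.85-fold lower in Mbd3abc KO and 2.23-fold lower in Mbd3cΔN-ab KO cells. Hras, the GTPase gene on the other side, was 1.74-fold and 1.49-fold lower. Neither came near the fall of Rnh1. The deepest neighbour was the interferon-inducible membrane protein gene Ifitm3, from 897 ± 112 to 115 ± 71.7 normalized reads in Mbd3abc KO cells (SD, n = 2 each), 7.83-fold lower, and 4.35-fold lower in Mbd3cΔN-ab KO cells. Ifitm1 was 4.98-fold and 2.20-fold lower, Athl1 4.68-fold and 3.46-fold, and Sigirr, an inhibitory receptor of interleukin-1 signalling, 4.50-fold and 2.52-fold. The neighbours called higher in Mbd3abc KO cells were Eps8l2, 2.63-fold, and Cyp2e1, from 3.16 to 22.1 normalized reads. In Mbd3ab KO cells Ifitm1 (1.76-fold) and Ifitm3 (2.37-fold) were called lower, beside 1.3% of all genes tested there. In Mbd3c KO cells no neighbour was called, and only 0.353% of all genes tested there were. Within 500 kb of Gm20594 the reference holds 1 protein-coding gene, which was not called in any table.

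**Figure D5:**
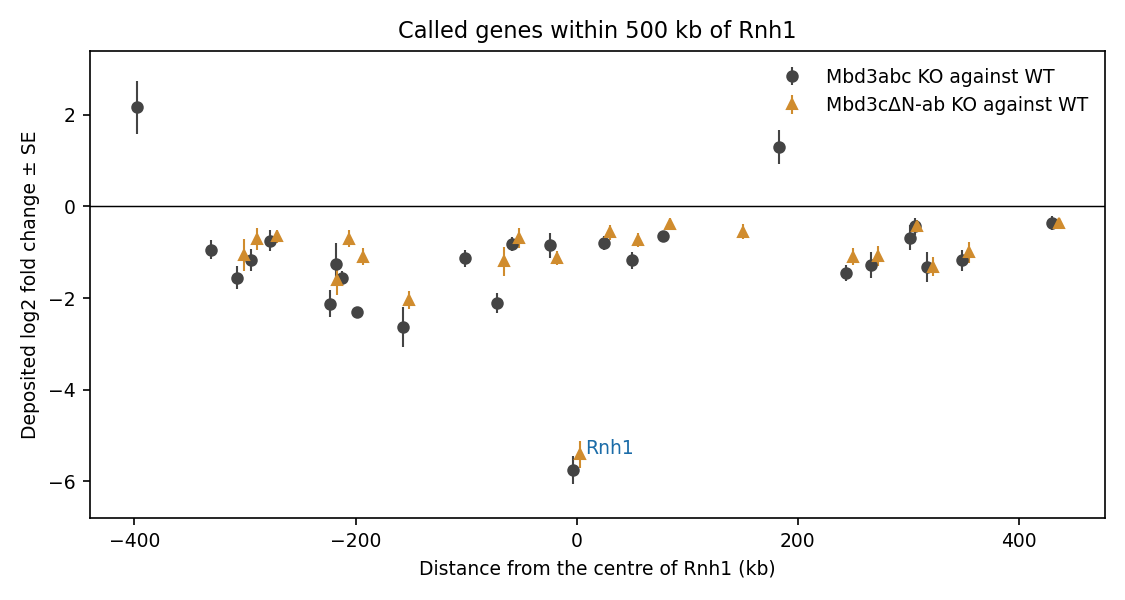
Log2 fold change with its SE from the authors' deposited tables (y axis) against distance from the centre of Rnh1 in kb (x axis, points of the 2 tables shifted by 3 kb in opposite directions), for genes called within 500 kb. Rnh1 lies at -5.76 and -5.41, and its deepest neighbour, Ifitm3, at -2.64 and -2.05.

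Genes of the RNase A family, to which the enzymes bound by the ribonuclease inhibitor belong, were mostly not among the called genes. They were listed by family, whether or not the inhibitor binds each product. How many of them were tested is not known, so an uncalled gene may be unexpressed or unchanged. Of 20 RNase A family genes, 2 were called in Mbd3abc KO cells and Rnase4 alone in the other strong mutant, all higher, beside 27.1% and 21.1% of all tested genes called higher. Rnase4 rose from 24.5 and 10.6 normalized reads in WT to 99.6 and 69.6 in Mbd3abc KO cells, 4.83-fold, and was 3.22-fold higher in Mbd3cΔN-ab KO cells. Ang, which encodes angiogenin, was called higher in Mbd3abc KO cells on 3 and 0 WT reads against 16 and 14, too few for a fold. Ang and Rnase4 lie at 1 locus and share upstream exons, so their reads may be split.

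Other ribonucleases moved in both directions. Shares of this list are of all its symbols, tested or not, and so are unlike the shares of tested genes beside them. Of 48 genes, 28 (58.3%) were called in Mbd3abc KO cells, beside 52.1% of all tested genes. Of these 18 were lower (37.5% of the list, beside 24.9% of tested genes) and 10 higher, with a median log2 fold change of -0.59 in the authors' deposited table against 0.46 over all called genes. In Mbd3cΔN-ab KO cells 23 (47.9%, beside 41.5%) were called, 17 lower (35.4%, beside 20.4%) and 6 higher, with a median of -0.56 against 0.37 in the authors' deposited table. The exosome subunit gene Exosc5 was 5.25-fold and 3.28-fold lower. Rnaseh2c, for a subunit of the enzyme that cuts RNA in RNA-DNA hybrids, was 4.45-fold and 2.92-fold lower, and Rpp25, for a subunit of RNase P and RNase MRP, 3.15-fold and 2.12-fold. In the milder mutants 1 of the 48 was called lower in Mbd3ab KO cells, where 1.3% of tested genes were called lower. Another 2 were called higher in Mbd3c KO cells, where 0.316% of tested genes were called higher.

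Genes for other proteins with repeats of the kind found in the ribonuclease inhibitor were called in both directions in the strong mutants. They chiefly encode proteins of the NLR family, which includes innate immune sensors. Shares of this list are of all 40 symbols, tested or not, so they cannot be ranked against the shares of tested genes. In Mbd3abc KO cells 11 of 40 (27.5%) were called higher, beside 27.1% of all tested genes, and 2 lower. In Mbd3cΔN-ab KO cells 5 (12.5%) were called higher, beside 21.1%, and 2 lower. Nlrp4f was 40.8-fold and 8.0-fold higher, the latter from Mbd3cΔN-ab KO libraries of 242 and 66.9 normalized reads. Nlrp3, for an inflammasome sensor, was 5.43-fold and 11.7-fold higher, on 7 and 5 WT reads. Nlrc5, a regulator of MHC class I genes, was 13.3-fold higher in Mbd3abc KO cells, on 6 and 5 WT reads. So few WT reads leave the folds of Nlrp3 and Nlrc5 uncertain. Nlrp9b was 5.35-fold and 1.80-fold lower. Both called in Mbd3ab KO cells, Nlrp4f and Nlrp3, were higher, as were 2.05% of all genes tested there. No gene of this list fell as Rnh1 did.

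The libraries were checked against the labels. Mbd3 was 2.61-fold lower in Mbd3ab KO, 13.0-fold in Mbd3abc KO and 5.57-fold in Mbd3cΔN-ab KO cells, and was not listed for Mbd3c KO cells. Listed genes held 4217977 to 9027663 recovered reads per library in the strong tables. Of 8 embryonic stem cell markers, 6 were called in Mbd3abc KO cells, where 52.1% of all tested genes were called. Of these markers 4 were lower, beside 24.9% of tested genes called lower, and 2 higher. In Mbd3cΔN-ab KO cells 5 were called, 4 lower and 1 higher, beside 41.5% of tested genes called and 20.4% called lower. In Mbd3abc KO cells Pou5f1 was 3.02-fold lower and stayed abundant, with 2816 and 4647 normalized reads. Klf4 was 1.95-fold and Sox2 1.40-fold higher in Mbd3abc KO cells. Of 6 fibroblast markers 2 were called, Thy1 higher and Col1a1 lower, and none of 4 endoderm markers was. Of 5 trophectoderm markers, Krt7 was called higher in both strong mutants, from 7.73 and 8.98 normalized reads in WT to 53.2 and 31.5 in Mbd3abc KO cells, 5.07-fold, and 4.91-fold in Mbd3cΔN-ab KO cells. Tfap2c was 3.97-fold lower in Mbd3cΔN-ab KO cells and 2.18-fold lower in Mbd3ab KO cells. The part of these marker changes in the fall of Rnh1 and Gm20594 was not tested.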

How the data were processed

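Each deposited table compares 1 mutant with WT and lists mostly called genes. Per the file headers, the authors counted exon reads with HOMER's minus-strand setting, condensed transcripts to genes and tested them with DESeq2; the submitters' processing notes name TopHat2, HOMER, DESeq2 and mm10. The tables hold deposited signal values (normalized reads per library), transcript lengths, log2 fold changes with SE, and p-values, all as the authors deposited them. Columns were assigned to groups by name, and 0 read columns were left unassigned.

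The deposited normalized reads were rescaled so that their mean equalled the deposited baseMean. Reads were recovered from the value of 1 read, and 100% of values came out whole within 0.02 normalized reads. The members and lists were chosen with earlier results of these data known. Named genes were the members, called neighbours within 500 kb, the called genes of the short lists, the 4 strongest of the longer lists, 5 nearest patterns (pseudocount 1) and the 8 deepest falls; some of these genes are not reported here. The mutants were compared with edgeR 4.0.16 (quasi-likelihood, TMM, 3 groups) under R 4.3.3, on the 5413 genes listed in both strong tables with the same transcript, which were selected for differing from WT. Alternatives used DESeq2 1.42.0 and limma 3.58.1. On simulated data for this contrast over 5413 genes, 63% of 2-fold and 96% of 4-fold changes were recovered, and 7.02% of calls were false. The simulation set each gene at its mean over the WT and mutant libraries. It thus gave Rnh1 and Gm20594 far more reads than the mutants held, so these rates do not describe the 2 members. Sequences and GC content came from GENCODE M21 (GRCm38) and neighbour counts from RefSeq; 98.9% and 99.0% of called genes had a GC value.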

Additional observations from a re-analysis of the deposited data

How the results depend on the processing

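Of 70 alternatives, 61 kept the direction and also the side of the threshold, a value within 1 SD or a count within 1.5 times. Another 8 moved a count by over 1.5 times and 1 turned a direction. For the ratios to WT, that SD came from the same libraries. Leaving out 1 library could therefore hardly break the rule, and nothing is read from those ratios keeping within it. Some of the 61 still moved a value by over 1.5 times: Gm20594 in Mbd3cΔN-ab KO cells was 78.0-fold lower by group means and 48.4-fold by the authors' deposited table. Leaving out 1 library at a time gave log2 ratios to WT of -6.39 to -5.66 for Rnh1 and -5.85 to -5.28 for Gm20594 in Mbd3abc KO cells, and of -6.23 to -5.51 and -6.77 to -5.92 in Mbd3cΔN-ab KO cells. Between the mutants the range was -0.43 to 0.10 for Rnh1, with 0.10 (adjusted p = 0.845, edgeR) without the first Mbd3cΔN-ab KO library, and 0.26 to 1.16 for Gm20594, both moves of over 1.5 times from -0.19 and 0.71. The number of genes called between the mutants was 361, 701 with DESeq2, 274 with limma, 10 with only the mutants in the fit, and 11 to 371 with 1 library left out. Neighbours of Rnh1 called lower went from 23 to 13 and from 20 to 12 within 250 kb. At an adjusted p of 0.01 the RNase A family went from 2 to 1 in Mbd3abc KO, other ribonucleases from 23 to 14 in Mbd3cΔN-ab KO and the NLR list from 13 to 8 in Mbd3abc KO cells. At 2-fold or more, other ribonucleases went from 28 to 15 and from 23 to 5, and the NLR list from 7 to 4 in Mbd3cΔN-ab KO cells. These settings are stricter by construction; the cause of the turned direction was not tested. An edgeR recount of recovered reads, chosen after seeing the data, called 7821 and 5516 of the listed genes. No paired analysis was possible because the columns carry no replicate numbers that match the labels. Counts of 15 to 33 reads limit Gm20594 in the mutants.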
